A study of Mus musculus with 6 samples.

Results

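CTCF and cohesin genes encode the proteins that fold interphase chromosomes into loops and, for cohesin, hold sister chromatids together until mitosis. Cohesin is a ring of SMC1A, SMC3 and RAD21 that carries either STAG1 or STAG2, it is loaded on chromatin by NIPBL with its partner MAU2, and it is taken off by WAPL with the help of PDS5A or PDS5B. The ring extrudes loops of chromatin until it meets CTCF, a zinc finger protein bound to its DNA motif, and cohesin subunits, STAG2 above all, are recurrently mutated in myeloid leukemia. The 10 genes described here, Ctcf, Smc1a, Smc3, Rad21, Stag1, Stag2, Nipbl, Wapl, Pds5a and Pds5b, were taken by name from a table of 55487 mouse genes. All 10 were among the 15020 genes with a mean of at least 10 normalized counts, which were the genes tested.

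The samples were 6 bone marrow RNA-seq libraries from recipients of MLL-AF9 leukemia cells, which express a fusion oncoprotein of acute myeloid leukemia. The leukemia cells of both groups came from CD45.2(+) Mx1-Cre Brd9 fl/fl donors on a C57BL/6 background, in which Cre is driven by the interferon-inducible Mx1 promoter and can delete a floxed part of Brd9, a subunit of the non-canonical BAF chromatin remodeler. CD45.1(+) recipients were irradiated (2 fractions of 450 cGy and lethally per the series description, 450 cGy and sublethally per the methods), received 1000 leukemia cells each, and were then given 3 doses of PBS (the control, 3 libraries) or of pIpC at 20 mg per kg (a double-stranded RNA mimic that evokes interferon and thereby Cre, 3 libraries). Cells were collected 10 days after injection, as GFP(+) marrow cells per the labels and as sorted c-Kit(+) cells per the methods of the study. The comparison asked which genes differed once Brd9 was to be deleted. No library came from cells without floxed Brd9 that were given pIpC. Effects of pIpC itself, interferon among them, therefore cannot be told apart from those of a deletion. The labels do not say whether the 3 libraries of a group came from separate animals, so that p-values measure only the spread between these libraries, which may be technical.

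The libraries differed in more than their labels say, in ways that bear on each value below. Normalized counts of Brd9 itself, in order of replicate number here and throughout, were 1927, 1946 and 1632 in PBS against 2036, 2263 and 2011 in pIpC. The log2 difference was 0.20 ± 0.13 (SE, adjusted p = 0.259, limma), so that no fall was seen in the count of the whole gene. The floxed part is exons 4 to 6 alone. Each pIpC library lay above each PBS library. The count also holds reads from the other exons and cannot show whether that part was deleted. The study reported lower Brd9 mRNA in whole marrow after this excision. It also reported inefficient depletion in the leukemia cells of those pIpC-treated mice that died early. The second group is therefore called here the libraries labelled pIpC. Of 6 leukemia and progenitor genes 4 were called lower in that group and 1 higher, with Hoxa9 at a log2 difference of -4.32, Hoxa10 at -6.38 and Meis1 at -4.01, and the leukocyte antigen Ptprc at 1.02. The summed counts of 10 neutrophil markers were 15813 to 36613 in PBS and 2016950 to 2087995 in pIpC, and those of 9 erythroid markers 21 to 37 and 3808 to 5733, with Slc4a1 at 0 in all PBS libraries. The 9 B cell markers summed to 143 to 307 in PBS and 1392 to 2426 in pIpC, the 9 T and NK cell markers to 185 to 323 and 3876 to 4514, with the B cell marker Ms4a1 at 0 in PBS. Most of the T and NK sum was Nkg7, at 161.8, 167 and 301 in PBS and 4312, 3702 and 4056 in pIpC. The T cell markers Cd3e, Cd3g and Cd8a had too few counts to be tested. The 9 macrophage markers summed to 11180 to 15306 and 6732 to 8540, with 6 called higher and 3 lower. All tested neutrophil, erythroid, B cell and T or NK cell markers were called higher. Their part in the differences of the CTCF and cohesin genes was not tested, and in such bulk samples fewer cells of a type and less RNA per cell cannot be told apart.

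One control library also stood apart. PBS replicate 3 had fewer reads from long transcripts and more from short ones than PBS replicates 1 and 2, with a median log2 difference of 0.93 over genes with transcripts under 1 kb and of -0.97 over those above 8 kb. All 10 CTCF and cohesin transcripts are longer than the median of 2736 bases, and all 10 had their lowest PBS value in that library, as did 43.8% of tested genes. The ratio of PBS replicate 3 to the mean of the other PBS libraries ran from 0.422 for Nipbl to 0.812 for Smc1a. For this reason the results of the 10 genes are also given without that library and with the trend of log2 values on transcript length removed from every library. Recovered reads were 19277439 to 22378154 per PBS library and 22348517 to 23586722 per pIpC library.

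**Figure D1:**
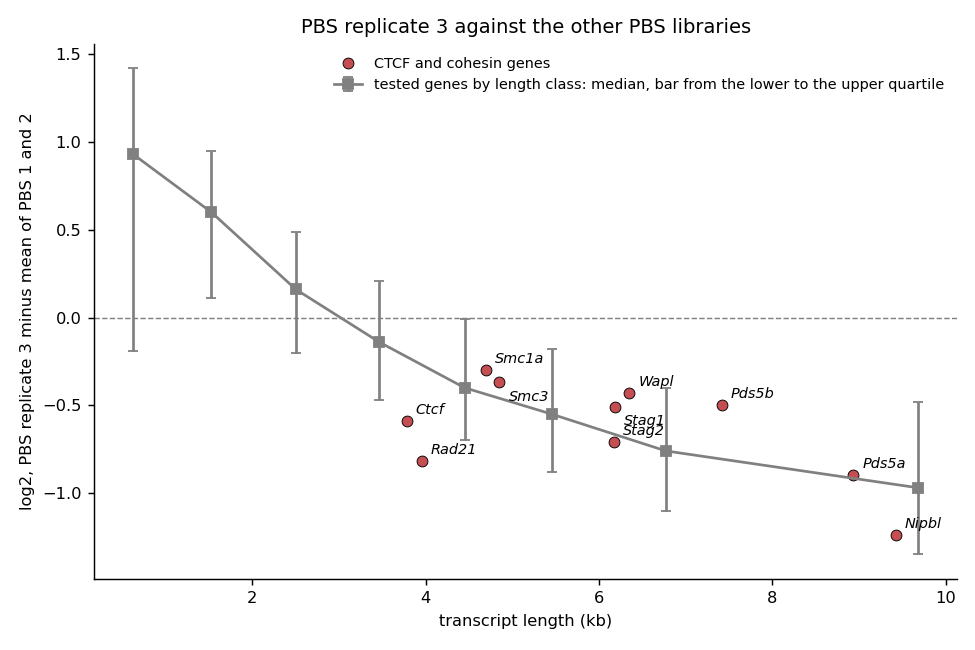
Log2 difference between PBS replicate 3 and the mean of PBS replicates 1 and 2 (y axis) against transcript length in kb (x axis), with the median and the lower to upper quartile of tested genes in each length class (grey) and the 10 CTCF and cohesin genes (red). The class medians go from 0.93 to -0.97, and the 10 genes lie between -0.30 (Smc1a) and -1.24 (Nipbl).

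Of the 10 genes, 3 passed an adjusted p of 0.1: Rad21 and Stag1 were higher and Nipbl was lower in the libraries labelled pIpC. The same test called 45.3% of all tested genes, 25.0% higher and 20.4% lower, so that 3 of 10 was no more than the share of the background. Groups did not overlap for 6 of the 10 genes (5 higher and 1 lower), against 56.8% of tested genes, 30.5% higher and 26.3% lower. The median log2 difference was 0.22 over the 10 genes and 0.015 over all tested genes. The 10 transcripts are long, and the median over tested genes rose with length, from 0.07 at 3 to 4 kb to 0.51 above 8 kb. Without PBS replicate 3 the count of called genes was 6, with Stag2 joining the higher genes and Smc3 and Pds5a the lower ones, while 65.1% of all tested genes were then called, 34.5% higher and 30.6% lower. With the length trend removed it was 5, since Stag2 was not among them, against 53.5% of tested genes (29.0% higher and 24.5% lower).

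**Figure D2:**
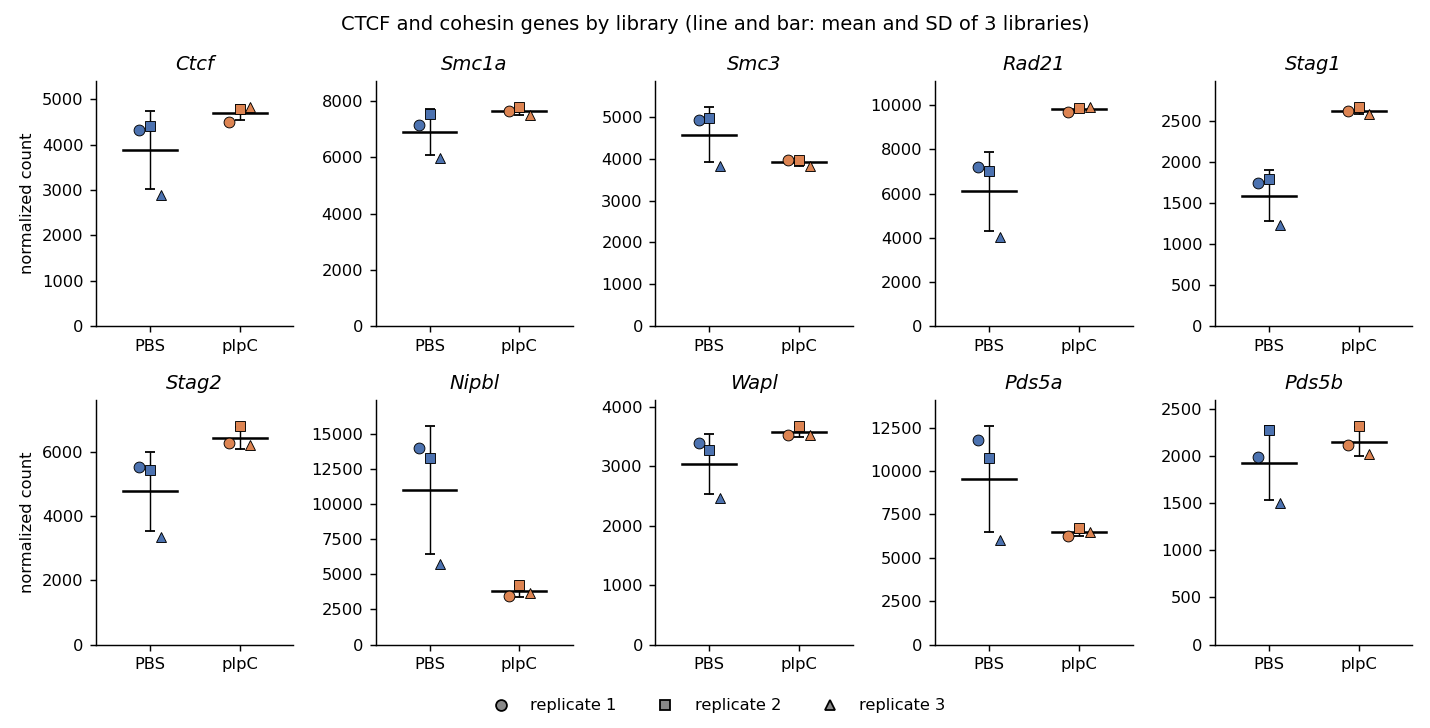
Normalized counts (y axis, from 0) of each of the 10 genes in the 3 PBS (blue) and 3 pIpC (orange) libraries, with symbols for the replicate number and the mean and SD in black. PBS replicate 3 (triangle) is the lowest PBS library in every panel, and the pIpC libraries lie below all PBS libraries for Nipbl only.

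Nipbl, which encodes the loader that also drives loop extrusion, showed the greatest difference among the 10 genes. Its normalized counts were 14026, 13246 and 5758 in PBS and 3479, 4220 and 3688 in pIpC. Each pIpC library was below each PBS library, although PBS replicate 3 lay nearer to the pIpC libraries than to the other PBS libraries. The group means were 11010 ± 4565 and 3796 ± 382 (SD, n = 3 each), a ratio of PBS to pIpC of 2.9. On the log2 scale Nipbl fell by 1.43 ± 0.34 (SE; 95% interval -2.25 to -0.62; adjusted p = 0.017, limma), and 6.9% of tested genes had a lower value. With PBS replicate 3 left out the log2 difference was -1.85 (adjusted p = 4.29e-07, limma), and with the length trend removed it was -1.86 (adjusted p = 1.6e-05, limma). Tested genes with transcripts above 8 kb had a median log2 difference of 0.51 between the groups, PBS replicate 3 included. Nipbl (chromosome 15, 8290617 to 8444463, minus strand; positions of genes are those of GENCODE M21 on GRCm38) has the longest transcript of the 10, 9423 bases in 47 exons.

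Mau2 encodes the partner of NIPBL, with which it forms a complex. Its counts were 2037, 1986 and 1471 in PBS and 1756, 2012 and 1867 in pIpC, with overlapping groups and a log2 difference of 0.05 ± 0.16 (SE; adjusted p = 0.829, limma). The direction was not stable, as the value was -0.10 without PBS replicate 3 (adjusted p = 0.279, limma) and -0.23 with the length trend removed, where Mau2 was called lower (adjusted p = 0.0541, limma). The ratio of Nipbl to Mau2, in normalized counts per kb of transcript, was 3.92, 3.80 and 2.23 in PBS and 1.13, 1.20 and 1.13 in pIpC, a pair chosen after its values were seen and not tested.

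Rad21 (chromosome 15, 51962240 to 51991747, minus strand) encodes the kleisin that closes the cohesin ring and is cleaved by separase at anaphase. It had 7212, 7034 and 4030 normalized counts in PBS and 9680, 9855 and 9904 in pIpC, so that all pIpC libraries lay above all PBS libraries. Its mean rose from 6092 ± 1788 to 9813 ± 118 (SD, n = 3 each), by 0.74 ± 0.24 on the log2 scale (SE; 95% interval 0.17 to 1.30; adjusted p = 0.0506, limma). The size of the rise depended on PBS replicate 3, without which it was 0.46 (adjusted p = 0.000173, limma), and it was 0.60 with the length trend removed (adjusted p = 0.0174, limma). Leaving out any pIpC library in turn ended the call, with adjusted p between 0.132 and 0.144 (limma). The log2 difference there stayed between 0.73 and 0.75. The share of all tested genes called was 31.0% to 33.7% in those fits, against 45.3% with all libraries.

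Stag1 and Stag2 encode alternative subunits of the ring, of which a cohesin complex holds either. Stag1 (chromosome 9, 100597798 to 100959375, plus strand) had 1745, 1798 and 1239 normalized counts in PBS and 2625, 2672 and 2589 in pIpC, with no overlap between the groups. Its mean rose from 1594 ± 308 to 2628 ± 41.6 (SD, n = 3 each), a log2 difference of 0.74 ± 0.17 (SE; 95% interval 0.34 to 1.14; adjusted p = 0.0135, limma). The rise was 0.57 without PBS replicate 3 and 0.42 with the length trend removed, and it passed the threshold in both (adjusted p = 6.14e-05 and 0.00599, limma). Stag2 had 5528, 5442 and 3361 in PBS and 6279, 6816 and 6215 in pIpC, again without overlap. Its log2 difference of 0.47 ± 0.21 (SE; 95% interval -0.04 to 0.97; adjusted p = 0.133, limma) did not pass the threshold, whereas the value of 0.23 without PBS replicate 3 did (adjusted p = 0.0151, limma) and that of 0.14 with the length trend removed did not (adjusted p = 0.151, limma). Stag2 is X-linked, as is Smc1a, and the X inactivation transcript Xist had 51.0, 72.9 and 15.8 counts in PBS and 18429, 26173 and 19942 in pIpC (log2 difference 9.05, adjusted p = 4.88e-05, limma). Xist thus split the libraries exactly as the labels do. A difference in sex between the cells of the groups therefore cannot be told apart from the label, for any gene, X-linked or not. The part of such a difference in the Stag2 and Smc1a values was not tested.

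The SMC subunits form the arms of the ring and its ATPase heads. Smc1a had 7165, 7560 and 5981 normalized counts in PBS and 7643, 7782 and 7519 in pIpC, with PBS replicate 2 inside the pIpC range. Smc3 had 4924, 4987 and 3822 in PBS and 3969, 3983 and 3827 in pIpC, where PBS replicates 1 and 2 were above the pIpC libraries and PBS replicate 3 was level with them. Neither passed the threshold, with log2 differences of 0.16 ± 0.13 for Smc1a (SE; 95% interval -0.17 to 0.48; adjusted p = 0.401, limma) and -0.21 ± 0.14 for Smc3 (SE; 95% interval -0.55 to 0.13; adjusted p = 0.284, limma). Smc3 was called lower without PBS replicate 3, at -0.34 (adjusted p = 0.00114, limma), and with the length trend removed at -0.45 (adjusted p = 0.00254, limma). The values of Smc1a there were 0.06 and -0.067, and it was not called in either.

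Because SMC1A, SMC3 and RAD21 are present in equal number in a ring, their transcript ratios within a library are given as well. The per-kb ratio of Smc1a to Smc3 was 1.5, 1.57 and 1.62 in PBS and 1.99, 2.02 and 2.03 in pIpC, and that of Rad21 to Smc3 was 1.80, 1.73 and 1.29 in PBS and 2.99, 3.03 and 3.17 in pIpC. Neither ratio overlapped between the groups, which was also so for 56.8% of single tested genes. Both were chosen after their values were seen and were not tested.

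Ctcf (chromosome 8, 105636568 to 105682922, plus strand), the gene of the loop anchor protein, was not called in any setting. It had 4336, 4418 and 2902 normalized counts in PBS and 4511, 4790 and 4828 in pIpC, so that all pIpC libraries lay above all PBS libraries, PBS replicates 1 and 2 by little. The means were 3885 ± 853 and 4710 ± 173 (SD, n = 3 each), a log2 difference of 0.30 ± 0.19 (SE; 95% interval -0.14 to 0.74; adjusted p = 0.243, limma), and 63.7% of tested genes had a lower value. The difference was 0.11 without PBS replicate 3 (adjusted p = 0.177, limma) and 0.20 with the length trend removed (adjusted p = 0.214, limma). The interval of -0.14 to 0.74 does not show that the groups had the same level of Ctcf.

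**Figure D3:**
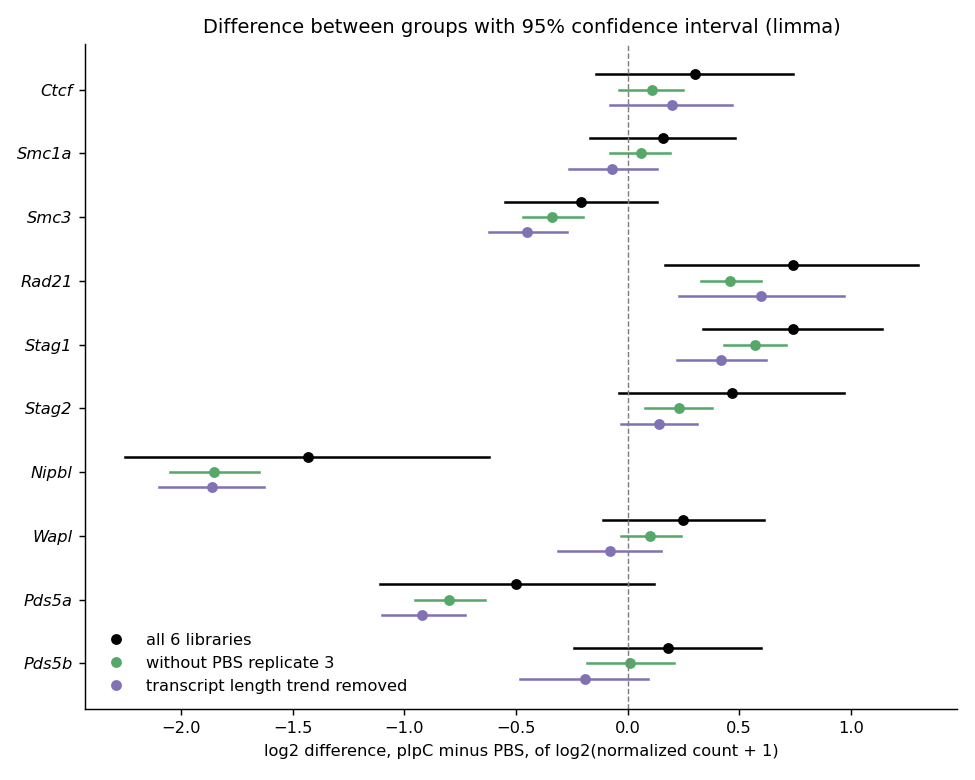
Log2 difference of each gene, pIpC minus PBS (x axis, difference of log2(normalized count + 1)), with its 95% confidence interval, from all 6 libraries (black), without PBS replicate 3 (green) and with the transcript length trend removed (purple). Nipbl lies below 0 and Rad21 and Stag1 above 0 in each setting, while the intervals of Ctcf hold 0 in each.

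Wapl, Pds5a and Pds5b encode the release factor and the paired scaffold proteins that assist both release and acetylation of cohesin. Wapl had 3391, 3268 and 2463 normalized counts in PBS and 3531, 3681 and 3527 in pIpC, all above PBS, with a log2 difference of 0.25 ± 0.15 (SE; 95% interval -0.11 to 0.61; adjusted p = 0.242, limma). Pds5b had 1991, 2275 and 1501 in PBS and 2116, 2318 and 2019 in pIpC, with overlapping groups and a log2 difference of 0.18 ± 0.18 (SE; adjusted p = 0.451, limma). Neither passed the threshold in any setting. Leaving out PBS replicate 3 took Wapl to 0.10 and Pds5b to 0.01, and with the length trend removed they were at -0.082 and -0.19. Pds5a (chromosome 5, 65605721 to 65698273, minus strand) had 11801, 10784 and 6048 in PBS and 6286, 6711 and 6485 in pIpC. Here PBS replicates 1 and 2 were far above every pIpC library and PBS replicate 3 was below them all. With all libraries its log2 difference was -0.50 ± 0.26 (SE; 95% interval -1.11 to 0.12; adjusted p = 0.177, limma), without PBS replicate 3 it was -0.80 (adjusted p = 1.48e-05, limma), and with the length trend removed it was -0.92 (adjusted p = 0.000113, limma). Pds5a thus passed the threshold only where the library or the trend was dealt with, or in DESeq2 on recovered reads (-0.56, adjusted p = 0.0969) and after removal of the GC trend. Those settings called 49.6% and 46.0% of all tested genes.

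Ratios within a library do not depend on its scaling, and 3 of them were tested between the groups. They were fixed before these tests, but their genes were chosen with earlier results of these data known. Stag2 to Stag1, per kb, was 3.18, 3.03 and 2.72 in PBS and 2.40, 2.56 and 2.41 in pIpC, a log2 difference of -0.28. Pds5a to Pds5b was 4.92, 3.93 and 3.35 in PBS and 2.47, 2.40 and 2.67 in pIpC, a log2 difference of -0.68. Nipbl to Wapl, the loader over the release factor, was 2.79, 2.73 and 1.58 in PBS and 0.664, 0.773 and 0.705 in pIpC, so that Nipbl exceeded Wapl in every PBS library and was below it in every pIpC library. Its log2 difference was -1.68. In all 3 ratios the groups did not overlap, PBS replicate 3 included. Groups also did not overlap for 56.8% of single tested genes, and the share among other pairs of genes was not computed. The exact permutation test gave p = 0.1 (two-sided) for each ratio, the smallest it can give with 3 against 3 libraries. After Benjamini-Hochberg adjustment over the 3 it was 0.1 for each. When PBS replicate 3 was left out the log2 differences were -0.34, -0.81 and -1.95, and with the length trend removed they were -0.27, -0.72 and -1.78.

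**Figure D4:**
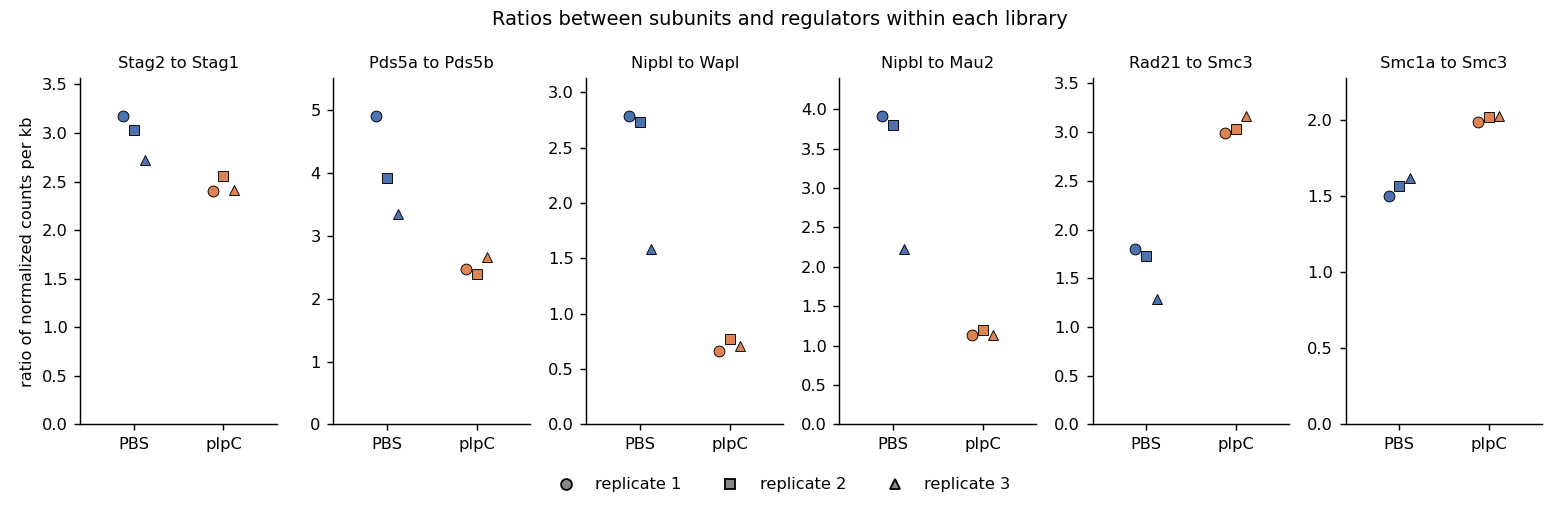
Ratios of normalized counts per kb of transcript (y axis, from 0) between pairs of cohesin genes in each PBS (blue) and pIpC (orange) library, with symbols for the replicate number. The groups are apart in all 6 panels, by the least for Stag2 to Stag1 (2.72 against 2.56 at the nearest) and by a clear gap for Smc1a to Smc3 (1.62 against 1.99).

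Compared per length, Rad21 had the highest level in pIpC, 2481 ± 29.7 normalized counts per kb, followed by Smc1a at 1630 ± 28.0, Ctcf at 1245 ± 45.7, Stag2 at 1043 ± 53.5 and Smc3 at 809.4 ± 17.7 (mean and SD, n = 3). Pds5a at 726.9 ± 23.8 and Wapl at 563.6 ± 13.8 came next, and Stag1, Nipbl and Pds5b were lowest. Neighbours in this order were apart in all pIpC libraries except Stag1 at 424.9 ± 6.73 and Nipbl at 402.8 ± 40.5, whose order varied. In PBS the order was Rad21, Smc1a, Nipbl, Pds5a, Ctcf, Smc3, Stag2, Wapl, Pds5b and Stag1. There the neighbours among Nipbl, Pds5a, Ctcf and Smc3 changed places between libraries, as did Rad21 and Smc1a, and Pds5b and Stag1. Nipbl thus stood at rank 3 of the 10 in PBS, at 1168 ± 484 per kb, and at rank 9 in pIpC. The spread within PBS ran from a coefficient of variation of 11.9% (Smc1a) to 41.5% (Nipbl), and that within pIpC from 1.2% (Rad21) to 10.1% (Nipbl).

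**Figure D5:**
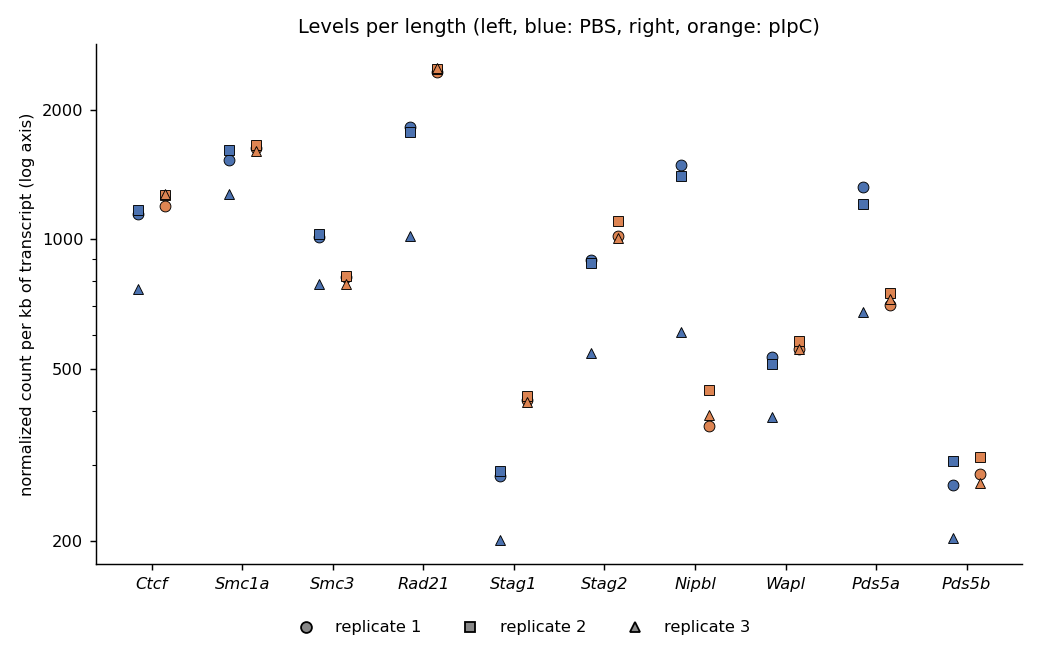
Normalized counts per kb of transcript (y axis, log scale) of the 10 genes in each PBS (left, blue) and pIpC (right, orange) library, with symbols for the replicate number. Nipbl goes from 1168 on average in PBS to 402.8 in pIpC, while Rad21 is the highest gene in each pIpC library.

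Promoters are shown for Ctcf, the anchor gene, and for Pds5a and Pds5b, the paralogs of the ratio above. The RefSeq table (GRCm38.p6) held 7 of the 10 genes, as 250 bases before to 50 after the start site. The stretches free of annotated exons are given 5′ to 3′ on the strand of the gene, with matches to the GC box in capitals. They are chr8:105636288-105636537 (plus strand) for Ctcf, chr5:65698274-65698486 (minus strand) for Pds5a and chr5:150673577-150673738 (plus strand) for Pds5b.
Ctcf: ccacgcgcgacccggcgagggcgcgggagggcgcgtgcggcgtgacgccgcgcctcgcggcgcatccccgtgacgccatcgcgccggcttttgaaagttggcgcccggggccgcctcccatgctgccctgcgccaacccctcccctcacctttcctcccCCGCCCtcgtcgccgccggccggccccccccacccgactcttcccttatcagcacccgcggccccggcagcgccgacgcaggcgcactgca
Pds5a: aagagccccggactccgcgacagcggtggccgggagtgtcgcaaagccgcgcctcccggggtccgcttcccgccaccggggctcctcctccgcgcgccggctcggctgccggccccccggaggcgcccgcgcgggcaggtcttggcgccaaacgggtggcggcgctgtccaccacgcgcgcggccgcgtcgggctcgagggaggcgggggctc
Pds5b: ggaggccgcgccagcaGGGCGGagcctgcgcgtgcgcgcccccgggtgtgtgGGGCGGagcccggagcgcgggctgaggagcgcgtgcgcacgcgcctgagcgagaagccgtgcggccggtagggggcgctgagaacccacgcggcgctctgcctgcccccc
The stretches have a GC content of 77.6%, 80.3% and 80.2%. In the full windows of 300 bases, both strands, the GC box GGGCGG was found in all 7 genes (1 match in Ctcf, 1 in Pds5a and 3 in Pds5b), against 35.7% of all windows in the table. The CCAAT box was found in Smc1a, Stag1, Wapl and Pds5b and not in Ctcf or Pds5a, against 37.4% of all windows. The E-box CACGTG, held by 7.15% of all windows, had no match in the 7. A match is a run of letters and not a site shown to be used.

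Overlapping genes can share reads, as the labels describe libraries without strand. Exons of Ctcf share 114 bases with Agrp and 370 with Gm5914 on the opposite strand, but both had fewer than 6 counts in every library. Exons of Pds5a share 255 bases with the antisense Gm42727, which had 126.3, 105.3 and 21.5 counts in PBS and 55.89, 45.98 and 45.45 in pIpC, and whose reads cannot be told apart from those of Pds5a.

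The order of the pathway around the ring was followed with 57 further genes in 7 lists, of which 54 were tested, 15 were called higher and 6 lower, with a median log2 difference of 0.19. Over all tested genes 45.3% were called, 25.0% higher and 20.4% lower. When PBS replicate 3 was left out 40 were called (65.1% of all tested genes, 34.5% higher and 30.6% lower), and when pIpC replicate 1, 2 or 3 was left out 7, 5 and 8 were (33.7%, 31.0% and 31.6% of all tested genes). Of 7 genes of loading, acetylation and protection, 4 were called higher and none lower, against the 25.0% and 20.4% of all tested genes, and the counts were the same without PBS replicate 3. They were Esco2 and Esco1, the acetyltransferases that lock cohesin on chromatin (log2 differences 0.95 ± 0.20 and 0.45 ± 0.13, SE; adjusted p = 0.0112 and 0.0397, limma), Sgo2a, a protector of centromeric cohesin (0.84 ± 0.13; adjusted p = 0.0025, limma), and Sgo1. Esco2 had 1024, 1023 and 636 counts in PBS and 1676, 1719 and 1671 in pIpC. Of 8 genes that promote or restrain cleavage and mitotic removal of cohesin, 4 were called higher and 1 lower, against 25.0% and 20.4% of all tested genes. Among the higher genes were Plk1 (0.93, adjusted p = 0.0165, limma), Bub1 (0.44) and Haspin (0.42). Pttg1, the separase inhibitor securin, was lower (-1.02, adjusted p = 0.0649, limma). Pttg1 had its highest value, 854.4, in PBS replicate 3 and a log2 difference of -0.60 without it.

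Of 12 genes that couple cohesion to the replication fork, 3 were called lower and 1 higher, with a median of -0.21. Over all tested genes 20.4% were called lower and 25.0% higher. Dscc1, of an alternative clamp loader, was lower by a log2 difference of -0.76 (adjusted p = 0.0136, limma), Rfc3 by -0.71 and Tipin by -0.46, and the higher gene was Chtf8, which has more than 1 identifier in the table and few counts and is uncertain (it is named here after its values were seen). In the fit that left out PBS replicate 3, 9 of the 12 were called lower and 1 higher, where 30.6% of all tested genes were lower, and Rfc3 was at -0.43. Of 5 meiotic genes 2 were tested: Stag3 had 1562, 648.8 and 801.2 counts in PBS and 471.1, 324.9 and 68.66 in pIpC (-2.08; adjusted p = 0.0635, limma), and Rec8, named after its values were seen, had 1.73, 0 and 2.263 in PBS and 65.87, 36.78 and 74.46 in pIpC (adjusted p = 0.000817, limma). The value of Stag3 was -1.25 without pIpC replicate 3, and its call was lost without PBS replicate 1 (adjusted p = 0.146, limma) or pIpC replicate 2 (adjusted p = 0.107, limma). Ctcfl, the germline paralog of Ctcf, had at most 3.065 counts in any library and was not tested.

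Among 11 partners of CTCF and other architectural factors, 2 were called higher and none lower (25.0% and 20.4% of all tested genes), and without PBS replicate 3 these counts were 6 and 3 (34.5% and 30.6%). They were Nsd2, a histone methyltransferase (0.44; adjusted p = 0.0987, limma), and Yy1, a zinc finger protein at enhancer and promoter contacts (0.28; adjusted p = 0.079, limma). With the length trend removed neither was called, at 0.055 and -0.047, and Nsd2 was at 0.26 without PBS replicate 3, where it was called, and lost its call when any pIpC library was left out (adjusted p 0.201 to 0.261, limma). Condensin, the relative of cohesin that compacts mitotic chromosomes, had 3 of 8 genes higher and none lower, Ncapg2 at 1.13, Ncaph2 at 0.37 and Ncaph at 0.33. Without PBS replicate 3 it had 6 higher and none lower, and Ncapg2 was at 0.71. In the SMC5/6 complex none of 6 was higher and Nsmce3 was lower (-0.70; adjusted p = 0.0746, limma), whereas without PBS replicate 3 Nsmce3 was at -0.42 and Nsmce2 and Nsmce4a, named after their values were seen, were called higher (0.48 and 0.17; adjusted p = 0.00318 and 0.049, limma). Of the genes named from these lists, Esco2, Sgo2a, Plk1 and Dscc1 passed the threshold whichever single library was left out, while the calls of Esco1, Bub1, Haspin, Pttg1, Rfc3, Tipin, Stag3, Nsd2, Yy1, Ncapg2, Ncaph2, Ncaph and Nsmce3 were each lost without at least 1 of the libraries. Of 15 proliferation markers 7 were called higher and 2 lower (25.0% and 20.4% of all tested genes), with a median of 0.47. They ran from Rrm2 at 1.29, Mki67 at 0.98 and Ccna2 at 0.94 to Mcm2 at -0.34 and Mcm3 at -0.48. Their summed counts were 76849 to 92620 in PBS and 111339 to 117713 in pIpC, and their part in the values of the cohesin and condensin genes was not tested.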

How the data were processed

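RNA-seq was deposited for 3 PBS and 3 pIpC samples as a table of normalized counts (signal) that the authors made. The submitters' processing notes name HISAT2 2.2.1, SAMtools, featureCounts and edgeR with GRCm38, and the methods of the study name STAR, RSEM and DESeq2 with mm10. The deposited signal was a whole read times a constant per library (tolerance 0.05 reads), from which reads were recovered. Genes were named with GENCODE M21, and lengths and per-kb values are those of the longest transcript. The labels describe an unstranded kit and the methods a stranded one. The main test was limma (3.58.1, under R 4.3.3; trended prior variance) on log2(normalized count + 1) of all 15020 genes with a mean of at least 10, by Benjamini-Hochberg adjustment and the study's threshold of 0.1; fold changes on this scale understate those of low genes. A simulated log2 change of 2 was recovered in 80.5% of 200 genes of 15020 in the pIpC against PBS comparison, where 10.1% of calls were unchanged genes. Smaller changes, such as those of the CTCF and cohesin genes, were not simulated. In the data 45.3% of tested genes were called and PBS replicate 3 stood apart. The simulation changed far fewer genes and gave each gene the same dispersion in all libraries, so that its rates need not hold for the data. edgeR 4.0.16 and DESeq2 1.42.0 on recovered reads were alternatives. Members and lists were chosen with earlier results of these data known. Members, Brd9 and Xist were named, and from each list up to 3 called genes per direction with a mean of at least 50; for the marker lists of other cell types sums are given. Replicate numbers did not pair the samples.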

Additional observations from a re-analysis of the deposited data

How the results depend on the processing

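The log2 differences of Nipbl, Rad21 and Stag1 kept their direction in every setting tried, and the ratios Stag2 to Stag1, Pds5a to Pds5b and Nipbl to Wapl did too. The number of the 10 genes called was 3 with all libraries and between 2 and 6 when each library was left out in turn. It was 6 without PBS replicate 3 (also after removal of the length trend, 6, an alternative chosen after seeing the data, with 65.7% of tested genes called), 2 without any one pIpC library (33.7%, 31.0% and 31.6% of tested genes), where Rad21 was lost, and 4 without PBS replicate 1 (44.4%), where Stag2 was added. It was 5 with the length trend removed, both without the replicate block (53.5% of tested genes) and with it (49.0%). It was 6 with the GC trend removed (46.0% of tested genes), 4 by DESeq2 (49.6%) and 3 by edgeR (45.9%). The calls split into 2 higher and 1 lower with all libraries, and into 2 higher and 3 lower with the length trend removed. The number of other pathway genes called was 21 with all libraries and between 5 and 40 when each library was left out, lowest without pIpC replicate 2. It was 45 without PBS replicate 3 and the length trend, 12 with the replicate block, 13 with the block and the GC trend removed, and 8 at an adjusted p under 0.05. Since the numbers share only a label (correlations of the deviations of same-numbered samples -0.117, 0.143 and 0.0405), the replicate block is no paired analysis. It left 3 of the 10 genes and 6095 of all genes called (40.6%), against 6808, and ratios then had p = 0.25 by an exact sign-flip test, the smallest possible.

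With the length trend removed, with or without the block, Smc1a was at -0.067, Wapl at -0.082, Pds5b at -0.19, Mau2 at -0.23 and Yy1 at -0.047, against positive values for each with all libraries as deposited. Without PBS replicate 3 as well, Smc1a was at -0.022 and Pds5b at -0.089, neither called, and Mau2 was called lower at -0.19 (adjusted p = 0.0281, limma). Mau2 also was at -0.11 after quantile normalization, which moved the median of all genes to -0.120, and between -0.10 and 0.13 when each library was left out (-0.001 without pIpC replicate 2). The cause was not tested. Over 46 named genes and 965 comparisons with an alternative, 828 kept their direction and side of the threshold, 101 lost a call, 20 gained one and 16 turned. PBS replicate 3 limits the precision of all values given for PBS.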

Other observations

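The genes beside Nipbl and Pds5a were read from the same table, chosen after the values of both genes were seen, and their p-values are those of the fit over all genes. The nearest tested gene on one side of Nipbl was Cplane1, with 677.5, 709.5 and 321.4 normalized counts in PBS and 228.6, 332.0 and 296.9 in pIpC (log2 difference -0.92, adjusted p = 0.0709, limma). On the other side, 67864 bases away, lay the long non-coding Gm49249, with 96.04, 89.07 and 161.8 counts in PBS and 1.996, 10.22 and 2.901 in pIpC (adjusted p = 0.00102, limma). Beside Pds5a, Ube2k, a ubiquitin-conjugating enzyme gene 6733 bases away, had 4279, 3687 and 6532 counts in PBS and 2335, 1675 and 1772 in pIpC (-1.30, adjusted p = 0.00627, limma), and N4bp2os on the other side was at -0.81 and not called (adjusted p = 0.135, limma). In Ube2k and Gm49249, unlike Nipbl and Pds5a, PBS replicate 3 held the highest PBS value.

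The genes whose log2 values followed Ctcf most closely over the 6 libraries, of 10486 genes with a mean of at least 100 counts, were Med24 (Pearson r = 0.9995), Ap3d1 (0.9993) and Zdhhc9 (0.9988). With 6 libraries 154 genes had an r above 0.99, and PBS replicate 3 was the lowest library for Ctcf and for these 3 genes, so that the values are a description only.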
